A study of Homo sapiens with 4 samples.

Results

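Mitophagy genes whose products mark or label mitochondria for removal were read in H1975 cells, a human lung adenocarcinoma line, kept for 24 h in hypoxia or in normoxia. The set was defined by gene symbol, with earlier results of these data known. It holds BNIP3, BNIP3L, FUNDC1, PINK1, FKBP8, BCL2L13 and PHB2. All 7 symbols were found among the 15562 genes of the RNA-seq tables. Hypoxia was a gas mix of 1% O2, 5% CO2 and 94% N2. The normoxia cells grew in a humidified atmosphere with 5% CO2. Both groups are labelled wild type (WT) and came from the same line, and each was measured by 1 RNA-seq library. The series also holds 1 miRNA-seq library per condition, not analysed here.

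Mitophagy is the selective delivery of mitochondria to the lysosome by autophagy. In one route, receptors anchored in the mitochondrial outer membrane (BNIP3, BNIP3L, also called NIX, FUNDC1, FKBP8 and BCL2L13) bind ATG8 proteins on the growing autophagosome through a short LC3-interacting region. In the other, the kinase PINK1 gathers on damaged mitochondria, and proteins of their outer membrane are tagged with ubiquitin. PINK1 is thus a sensor rather than a receptor, and PHB2 is an inner membrane prohibitin that is exposed to ATG8 proteins when the outer membrane breaks. BNIP3 and BNIP3L are known targets of the hypoxia-inducible factors (HIF), while FUNDC1 is known to be controlled in hypoxia mainly through its phosphorylation, which RNA-seq does not read.

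The libraries held 18943320 counts in hypoxia and 17643836 in normoxia. Since each condition was sequenced once, the variation between cultures is unknown and no p-value was computed. Each difference is a ratio of hypoxia to normoxia on counts scaled by the trimmed mean of M values (TMM), with a 95% counting interval from the exact binomial (Clopper-Pearson) method. Higher or lower below means that this interval excludes equality, and describes these 2 libraries only. Intervals cover counting error alone, and the true error between cultures is larger. A bulk library cannot tell apart fewer cells that hold a transcript and less of it per cell. Of the 8 lung epithelial markers examined, none was at 0 in either library, with FPKM (fragments per kilobase and per 1000000 reads) between 3.66 and 1692 in hypoxia and between 3.34 and 1821 in normoxia. Their summed FPKM was 4710 in hypoxia and 5188 in normoxia, with 1 marker higher and 4 lower, all keratins, of which KRT7 had the largest difference (log2 ratio -0.42, -0.45 to -0.40). Of 8 endothelial, fibroblast and leukocyte markers, VWF and PTPRC had 2 counts each in hypoxia and 0 in normoxia, which allows up to 3, while the fibroblast marker COL3A1 was higher, with 60 counts in hypoxia and 25 in normoxia (log2 ratio 1.17, 0.48 to 1.91). The other 5 were within counting error of equality. The summed FPKM of those 8 markers was 147 in hypoxia and 146 in normoxia, of which CD68 alone gave 128 in both libraries. The part of these markers in the results was not tested.

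BNIP3, an outer membrane protein with a BH3-like domain that acts as a mitophagy receptor, had the largest difference of the 7 genes and was higher in hypoxia. It had 2462 counts in hypoxia and 1469 in normoxia, and 84.3 FPKM in hypoxia and 54.0 FPKM in normoxia. Its ratio was 1.57 (1.47 to 1.68), a log2 ratio of 0.65 (0.56 to 0.75). Of the 10739 genes that reached 100 counts in each library (well-counted genes), 20 had a higher log2 ratio than BNIP3, and the central 95% of these genes lay between -0.33 and 0.33. Of the 3626 genes with a mean CPM (counts per 1000000) within 2-fold of BNIP3, 8 had a higher log2 ratio.

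BNIP3L, the closest relative of BNIP3 and the receptor that clears mitochondria from maturing red cells, was also higher, by less. It had 2196 counts in hypoxia and 1712 in normoxia, and 32.6 FPKM in hypoxia and 27.3 FPKM in normoxia. Its ratio was 1.20 (1.13 to 1.28), a log2 ratio of 0.27 (0.17 to 0.36). This value lay within the central 95% of well-counted genes, with 482 of the 10739 genes above it. The difference between BNIP3 and BNIP3L can be read without any library scaling, as the ratio of their ratios. It was 1.31 (1.19 to 1.43) in favour of BNIP3.

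**Figure D1:**
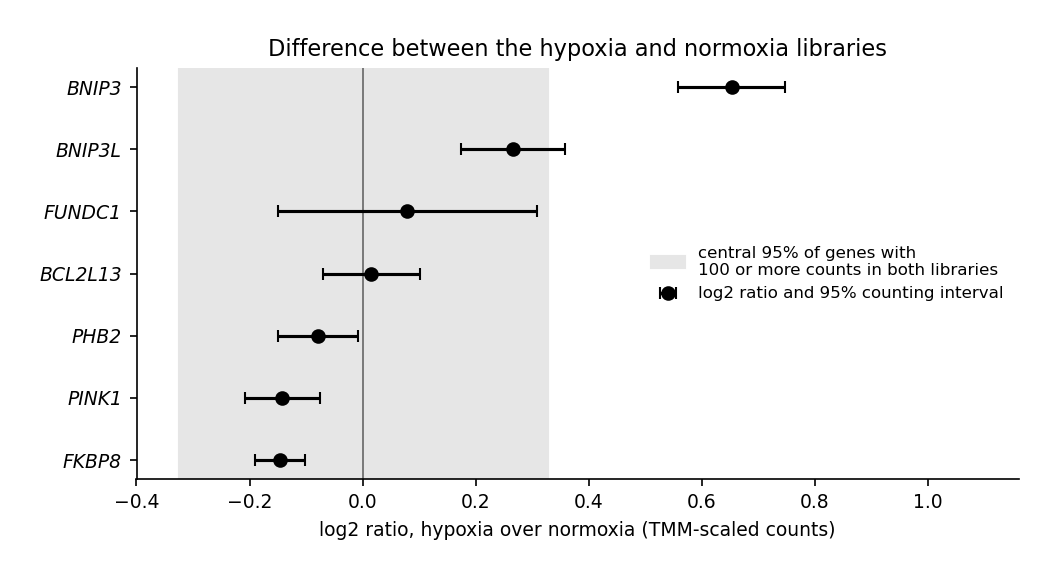
Log2 ratio of hypoxia to normoxia for the 7 genes on TMM-scaled counts, with 1 library per condition. Bars are 95% counting intervals and the grey band is the central 95% of the well-counted genes (-0.33 to 0.33); BNIP3 at 0.65 lies outside the band, and the interval of BNIP3L lies wholly above 0.

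The promoter of BNIP3 is shown because it carries several copies of the core letters that HIF is known to bind, and that of FUNDC1 because it carries none in the same window. BNIP3 (Entrez 664) lies on chromosome 10 (131967684 to 131981923, GRCh38.p14) and FUNDC1 (Entrez 139341) on chromosome X (44523639 to 44542859). The sequences, from RefSeq on GRCh38.p14, are the 250 bases before the annotated start of each gene, on the minus strand, at chr10:131981924-131982173 and chrX:44542860-44543109. Capitals mark the letters ACGTG or GCGTG read on either strand (CACGT or CACGC on the printed strand), with overlapping matches merged.
BNIP3: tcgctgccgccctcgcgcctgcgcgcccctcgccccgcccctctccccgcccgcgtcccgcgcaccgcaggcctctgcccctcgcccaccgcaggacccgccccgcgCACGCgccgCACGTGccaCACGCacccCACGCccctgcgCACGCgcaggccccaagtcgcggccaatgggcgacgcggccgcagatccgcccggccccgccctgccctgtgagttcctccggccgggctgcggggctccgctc
FUNDC1: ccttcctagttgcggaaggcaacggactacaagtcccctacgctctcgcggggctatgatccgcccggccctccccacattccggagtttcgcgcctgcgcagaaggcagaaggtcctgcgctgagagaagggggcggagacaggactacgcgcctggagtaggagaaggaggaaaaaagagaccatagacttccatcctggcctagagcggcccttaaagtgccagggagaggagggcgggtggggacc

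In this window BNIP3 held 5 separate matches, which begin 143, 134, 125, 116 and 104 bases before the start. The match at 134 bases reads the same on both strands. At least 1 such match was present in 43.2% of all 35116 promoter windows of this length, and 0.629% of windows held 5 or more. The BNIP3 window is rich in G and C, at 81.6% against a median of 58.0% over all windows, and of the 2564 windows within 5 percentage points of its G and C content 59.4% held a match and 1.56% held 5 or more. Of 25 windows matched for 18 of the HIF target genes described below, 21 held a match and 0 held 5 or more. Promoter sequence was matched for 4 of the 7 genes, and not for BNIP3L, PINK1 and FKBP8. FUNDC1 and both PHB2 windows held no match, and of the 3 BCL2L13 windows 1 held a single match, 17 bases before its start. A match is a run of letters and says nothing of whether a factor binds there, and binding was not measured.

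FUNDC1, a receptor whose binding to LC3 is switched by phosphorylation, was the least counted of the 7. It had 339 counts in hypoxia and 301 in normoxia, and 17.0 FPKM in hypoxia and 16.2 FPKM in normoxia. Its ratio of 1.06 had an interval of 0.902 to 1.24, which holds 1. A difference within that range was not detectable at this depth.

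BCL2L13, a BCL2-related outer membrane protein and the mammalian counterpart of the yeast receptor Atg32, was level between the libraries within a narrow interval. It had 2281 counts in hypoxia and 2117 in normoxia, and 20.6 FPKM in hypoxia and 20.5 FPKM in normoxia. Its ratio was 1.01 (0.952 to 1.07), so an increase as large as that of BNIP3L lay outside what counting error allows.

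The other 3 genes were slightly lower in hypoxia. FKBP8, a receptor of the FK506-binding protein family that also holds BCL2 at mitochondria, had 7928 counts in hypoxia and 8228 in normoxia, and 238 FPKM in hypoxia and 265 FPKM in normoxia. Its log2 ratio was -0.15 (-0.19 to -0.10), or 1.11-fold lower. PINK1 had 3538 counts in hypoxia and 3661 in normoxia, and 70.3 FPKM in hypoxia and 78.1 FPKM in normoxia. This gave a log2 ratio of -0.14 (-0.21 to -0.07), or 1.10-fold lower. PHB2 had 3179 counts in hypoxia and 3149 in normoxia, and 115 FPKM in hypoxia and 122 FPKM in normoxia, with a log2 ratio of -0.08 (-0.15 to -0.01). Raw counts of PHB2 were thus close to equal, and its lower value comes with scaling to the deeper hypoxia library.

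The ratios of well-counted genes followed a weak trend with gene length and were lower for short genes. Length here is the fixed length implied by the deposited FPKM, not the genomic span. The median log2 ratio of well-counted genes was -0.06 in the length bin of PHB2, -0.05 in that of FKBP8 and -0.01 in that of PINK1. With these medians subtracted, the log2 ratio of PHB2 was -0.02 (-0.09 to 0.05) and no longer excluded 0, that of FKBP8 was -0.10 (-0.14 to -0.05) and that of PINK1 was -0.13 (-0.20 to -0.06). The same step, which was chosen after seeing the data, gave BNIP3 a log2 ratio of 0.71 and left BNIP3L at 0.27.

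Of the 7 genes, 2 were higher and 3 lower. By the same rule 15.0% of all 12725 genes at a CPM of 1 or more were higher and 14.0% were lower. Among well-counted genes with a mean CPM within 2-fold, 20.4% were higher around BNIP3 and 20.3% around BNIP3L. Around PINK1 23.3% of such genes were lower, around FKBP8 27.7% and around PHB2 22.2%. None of the 7 passed a size rule of a 2-fold difference, which 0.472% of genes passed as higher and 0.440% as lower. The median log2 ratio of the 7 was 0.02, against 0.00 for all genes. All 7 passed the filter in both libraries on their level, with 301 counts or more each, so none entered through 1 condition alone. The 7 log2 ratios ran from -0.15 for FKBP8 to 0.65 for BNIP3.

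**Figure D2:**
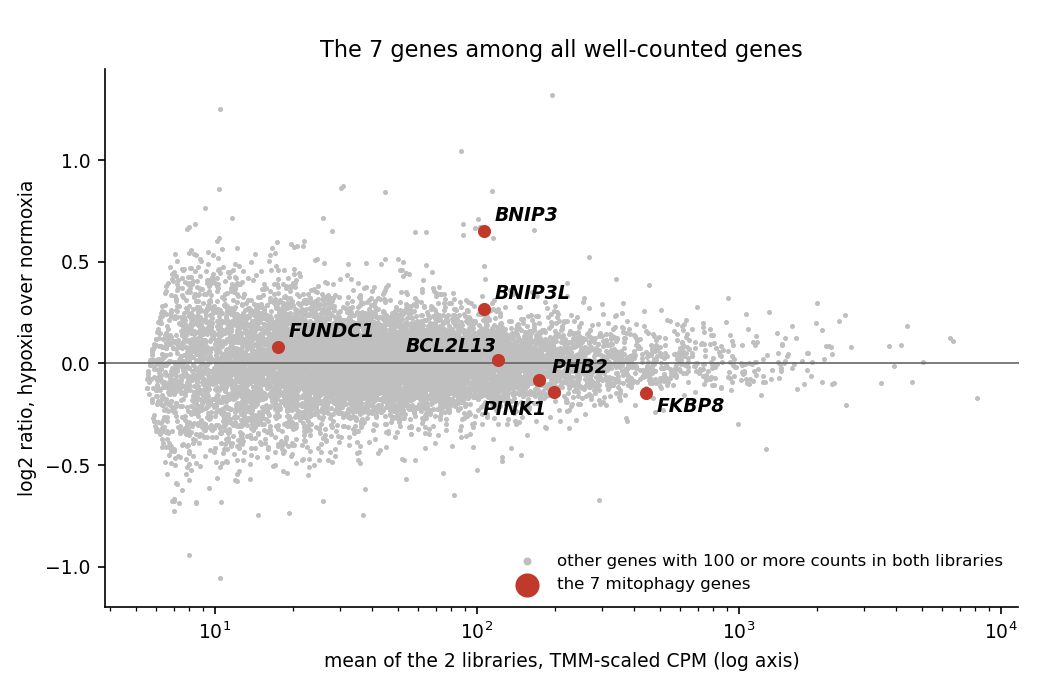
Log2 ratio of hypoxia to normoxia against the mean TMM-scaled CPM of the 2 libraries (log axis) for the 10739 well-counted genes. Red points are the 7 genes: BNIP3 lies near the upper edge of the cloud, where 20 genes are higher, BNIP3L lies inside the upper part, and FKBP8, PINK1 and PHB2 lie just below 0.

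The ratios were compared between all 21 pairs of the 7 genes. The interval of the ratio of ratios excluded 1 for 12 pairs, and for 11 when widened to hold over the 21 pairs together. BNIP3 differed from each of the other 6 genes, from 1.31 (1.19 to 1.43) against BNIP3L to 1.74 (1.62 to 1.87) against FKBP8. BNIP3L differed from BCL2L13 (1.19, 1.09 to 1.30), PHB2 (1.27, 1.17 to 1.38), PINK1 (1.33, 1.23 to 1.44) and FKBP8 (1.33, 1.24 to 1.43), but its value against FUNDC1, 1.14 (0.960 to 1.35), was within counting error. In the order BNIP3, BNIP3L, FUNDC1, BCL2L13, PHB2, PINK1 and FKBP8, neighbours other than BNIP3 and BNIP3L did not differ beyond counting error. BCL2L13 differed from FKBP8 (1.12, 1.05 to 1.20), and from PINK1 (1.11, 1.03 to 1.20) only before the widening. These ratios keep the length trend, a median log2 ratio of 0.03 in the length bin of BCL2L13 and -0.05 in that of FKBP8. With it removed BCL2L13 was at -0.02 (-0.10 to 0.07) and FKBP8 at -0.10 (-0.14 to -0.05), and these intervals overlap. The pair intervals were not recomputed with the trend removed.

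Levels, which are compared between genes per length in FPKM, spanned a wide range. FKBP8 was the most abundant in both libraries and FUNDC1 the least, with FKBP8 at 14.0 times the level of FUNDC1 in hypoxia and 16.4 times in normoxia. By level FKBP8 was above 98.7% of all genes in hypoxia and 98.8% in normoxia, BNIP3 above 94.8% in hypoxia and 91.3% in normoxia, and FUNDC1 above 75.1% in hypoxia and 74.2% in normoxia. The order of levels changed at 1 place. BNIP3 was the third most abundant of the 7 in hypoxia, at 1.20 times the level of PINK1, and the fourth in normoxia, at 0.691 times. The change in that ratio was 1.73 (1.60 to 1.88), beyond counting error.

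The summed level of the 7 transcripts was nearly the same, at 577 FPKM in hypoxia and 583 FPKM in normoxia. Within that sum, BNIP3 made up 14.6% in hypoxia and 9.26% in normoxia. BNIP3L made up 5.64% in hypoxia and 4.68% in normoxia. FKBP8 made up 41.2% in hypoxia and 45.4% in normoxia, and of the other 4 genes the share of PINK1 changed most, by -1.22 percentage points. The level of BNIP3 was 2.59 times that of BNIP3L in hypoxia and 1.98 times in normoxia. These shares are of transcripts, and protein was not measured.

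**Figure D3:**
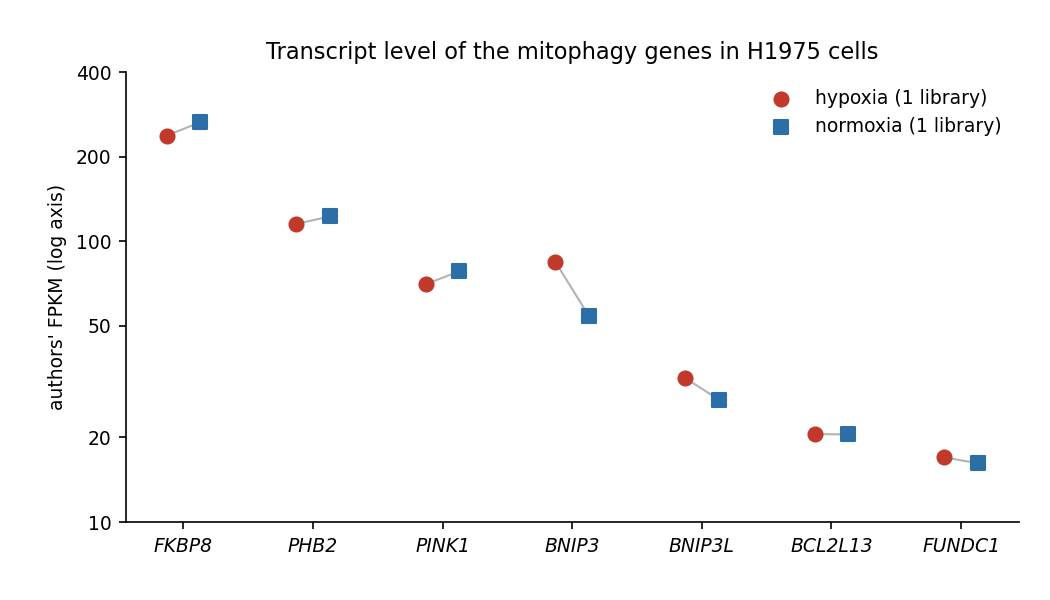
Level of the 7 transcripts as the authors' FPKM (log axis), with 1 library of hypoxia (red circles, left) and 1 of normoxia (blue squares, right) per gene. BNIP3 at 84.3 FPKM in hypoxia and 54.0 in normoxia has the steepest line and passes PINK1, while BCL2L13 and FUNDC1 are close to level.

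BNIP3 and BNIP3L were set beside 20 other genes known as HIF targets. All 20 had a log2 ratio above 0, and 19 were higher, with a median log2 ratio of 0.43. By the same rule 15.0% of all 12725 genes at a CPM of 1 or more were higher. The list of 20 was chosen with earlier results of these data known, so it is no independent reference. BNIP3 stood in the upper part of this list. Its ratio exceeded that of 11 of the 20 genes, was below that of 2, the stress gene NDRG1 (ratio of ratios 0.629, 0.579 to 0.684) and the mTORC1 inhibitor DDIT4 (0.871, 0.795 to 0.955), and did not differ beyond counting error from 7. Among those 7 were VEGFA (0.998, 0.918 to 1.09), HK2 (0.987, 0.899 to 1.08) and EGLN3 (1.01, 0.921 to 1.12). BNIP3L stood in the lower part, above only ENO1 (1.13, 1.06 to 1.21), below 11 of the 20 and within counting error of 8, such as the HIF hydroxylase EGLN1 (0.989, 0.901 to 1.08) and LDHA (1.02, 0.954 to 1.09). These intervals were not adjusted over the 20 genes.

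**Figure D4:**
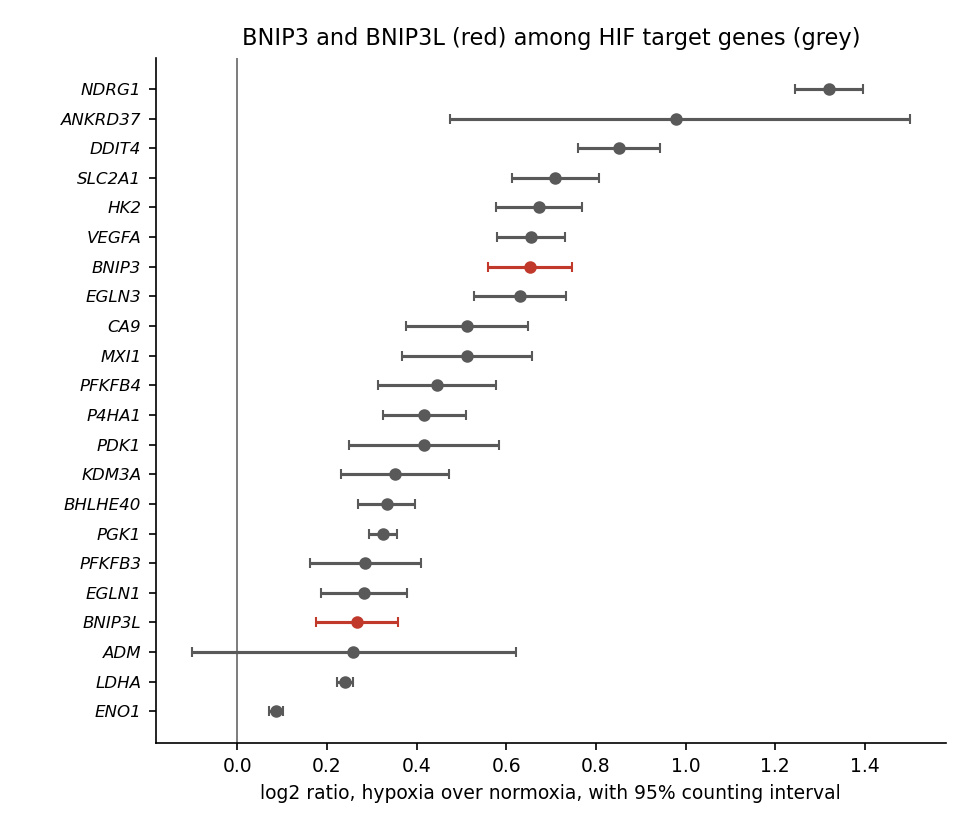
Log2 ratio of hypoxia to normoxia with 95% counting intervals for BNIP3 and BNIP3L (red) and 20 other HIF target genes (grey), from 1 library per condition, ordered by ratio. BNIP3 at 0.65 lies beside VEGFA, HK2 and EGLN3, and BNIP3L at 0.27 lies beside EGLN1 and ADM, above ENO1 and LDHA.

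The genes nearest to BNIP3 in log2 ratio, among those with a mean CPM within 2-fold of it, were VEGFA (0.66), the hormone gene STC1 (0.65), ARRDC3 (0.65), the glucose transporter SLC2A3 (0.67) and HK2 (0.67). Those nearest to BNIP3L at 0.27 were SPOCK1, GPNMB, ZKSCAN1, ADCY7 and HSPA1B, each within 0.01 of it. HSPA1B is uncertain because it has a near-identical copy. Likeness here is the difference between 2 log2 ratios over 2 libraries, so it groups genes of equal change and nothing more.

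The autophagy receptors that recognise ubiquitin on mitochondria were well read. Of the 6 genes of this arm given here, including the kinase TBK1, which is not such a receptor, 3 were higher and 1 lower, all by little. OPTN had 1068 counts in hypoxia and 904 in normoxia (log2 ratio 0.15, 0.02 to 0.28), CALCOCO2, which encodes NDP52, had a log2 ratio of 0.12 (0.02 to 0.21) and NBR1 of 0.09 (0.02 to 0.17), or 0.06 (-0.01 to 0.13) with the length trend removed. SQSTM1, which encodes p62, had 10188 counts in hypoxia and 10290 in normoxia (log2 ratio -0.11, -0.15 to -0.07). The median of the 6 was 0.03.

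The 12 genes listed for the import of PINK1 into mitochondria and its cutting there held 1 higher and 2 lower members, with a median log2 ratio of 0.01. The phosphatase PGAM5, which does neither, is among the 12. The import receptor TOMM20 was at 0.10 (0.04 to 0.16), the pore subunit TOMM40 at -0.16 (-0.24 to -0.08) and TOMM7, which helps to hold PINK1 at the outer membrane, at -0.10 (-0.16 to -0.03). With the length trend removed TOMM7 was at -0.04 (-0.10 to 0.02) and no longer lower. PARL, the protease that cuts PINK1 in healthy mitochondria, and the other 8 genes were within counting error of equality.

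The ATG8 proteins, to which the receptors bind, held 1 higher and 1 lower member of 7, with a median of 0.02. GABARAP was at 0.07 (0.00 to 0.13, the lower bound just above 0), or 0.06 (-0.01 to 0.12) when scaled by total counts, and MAP1LC3B at 0.02 (-0.07 to 0.10). MAP1LC3A had 116 counts in hypoxia and 149 in normoxia (log2 ratio -0.45, -0.82 to -0.09). MAP1LC3C had 28 counts in hypoxia and 40 in normoxia (-0.61, -1.36 to 0.13). MAP1LC3B and MAP1LC3B2 are close copies, and reads of the pair may have been set aside or split.

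Of 12 measured genes whose products act on the receptors, 2 were higher and 4 lower, with a median of -0.01. FBXL4, part of the ubiquitin ligase that holds BNIP3 and BNIP3L protein low, had 307 counts in hypoxia and 242 in normoxia (log2 ratio 0.25, 0.00 to 0.50, with the lower bound just above 0). Its interval held 0 with the length trend removed (0.21, -0.04 to 0.46) and when scaled by total counts (0.24, -0.01 to 0.49). Its partner PPTC7 was at 0.13 (-0.03 to 0.28). TMEM11, a mitochondrial membrane protein that restrains BNIP3 and BNIP3L, was at -0.20 (-0.36 to -0.05), or -0.15 (-0.30 to 0.00, the upper bound just above 0) with the length trend removed. Of the genes that set FUNDC1 phosphorylation, the activating kinase ULK1 was at 0.13 (0.03 to 0.24), the inhibitory kinase SRC at -0.27 (-0.41 to -0.14), the kinase CSNK2A1 and the phosphatase PGAM5 were within counting error of equality, and MARCHF5, the ligase that removes FUNDC1, was at -0.13 (-0.25 to 0.00, the upper bound just below 0). PHB1, the partner of PHB2 in the prohibitin complex, had 5353 counts in hypoxia and 5039 in normoxia (-0.01, -0.06 to 0.05).

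Among 9 ubiquitin ligases and deubiquitinases listed for mitophagy, not all of them mitochondrial, 3 were higher and 1 lower, with a median of 0.05. USP30, a mitochondrial deubiquitinase, had 287 counts in hypoxia and 217 in normoxia (log2 ratio 0.31, 0.05 to 0.57), and the ligase ARIH1 was at 0.27 (0.14 to 0.40). USP35 was at -0.30 (-0.57 to -0.03). Of 9 measured genes of other proteins reported as mitophagy receptors or adaptors none was higher and 3 were lower, with a median of -0.05. CHDH was at -0.40 (-0.61 to -0.20), ATAD3B at -0.29 (-0.44 to -0.13) and NIPSNAP1 at -0.08 (-0.14 to -0.02). NIPSNAP1 was no longer lower with the length trend removed (-0.03, -0.08 to 0.03).

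The core autophagy machinery held 6 higher and 3 lower genes of 25, with a median of -0.01, and 3 higher and 2 lower with the length trend removed. The lipid kinase PIK3C3 was at 0.27 (0.09 to 0.44) and its partner PIK3R4 at 0.20 (0.06 to 0.34), while ATG101 was at -0.22 (-0.31 to -0.12) and ULK2 at -0.20 (-0.40 to -0.01). None of 10 fission and fusion genes was higher or lower, from MIEF2 at -0.12 (-0.28 to 0.04) to OPA1 at 0.09 (-0.01 to 0.19). Of 10 measured sequence relatives of the 7 genes none was higher and 3 were lower. The 3 were BCL2L12 at -0.19 (-0.36 to -0.03), FKBP4 at -0.17 (-0.25 to -0.09) and BCL2L1 at -0.15 (-0.24 to -0.07). BCL2L12 was no longer lower with the length trend removed (-0.14, -0.31 to 0.02). BNIP2 was at 0.07 (-0.10 to 0.23), BNIP1 at -0.18 (-0.48 to 0.12) and FUNDC2 at 0.02 (-0.09 to 0.13). Over all 94 measured genes of these lists together 15 were higher and 17 lower (11 and 12 with the length trend removed). Of all 12725 genes at a CPM of 1 or more, 15.0% were higher and 14.0% lower. The counts of the single lists are to be read beside these shares too. The 94 genes had a median of -0.01 and a highest log2 ratio of 0.31, that of USP30, below that of BNIP3.

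**Figure D5:**
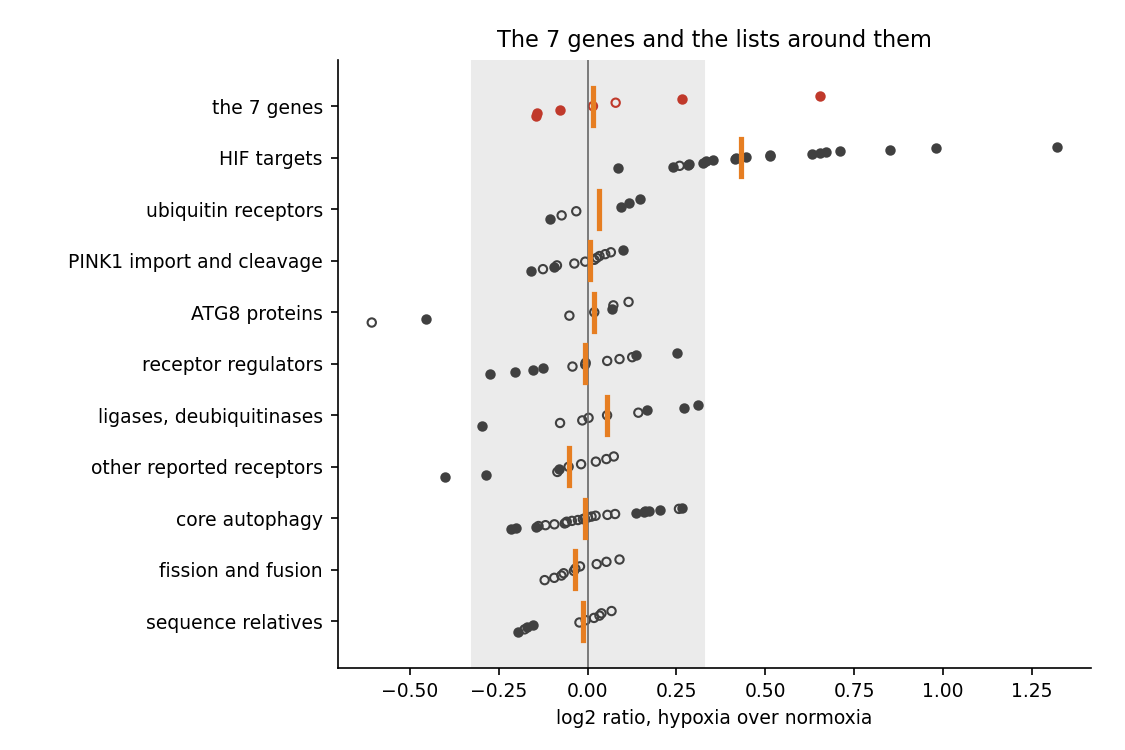
Log2 ratio of hypoxia to normoxia of the 7 genes (red), of 20 HIF targets and of the lists of mitophagy and autophagy genes, 1 point per gene that passed the filter. The row of ubiquitin receptors also holds the kinase TBK1, and that of PINK1 import and cleavage the phosphatase PGAM5. Filled points have a 95% counting interval that excludes 0, orange bars are medians and the grey band is the central 95% of well-counted genes; the HIF targets have a median of 0.43 and the rounded median of every other list plotted lies between -0.05 and 0.05.

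The other members lie at 26383054 to 26413127 on chromosome 8 (BNIP3L), 20633458 to 20651511 on chromosome 1 (PINK1), 18531763 to 18543573 on chromosome 19 (FKBP8), 17628877 to 17730855 on chromosome 22 (BCL2L13) and 6965327 to 6970753 on chromosome 12 (PHB2), all in GRCh38.p14. Some values carry a limit from the annotation. RefSeq lists 46 pseudogenes of BNIP3, not analysed here, and 1 of PHB2, and the counts of both genes are uncertain to the extent that reads shared with these copies were set aside or split. BNIP3 overlaps PPP2R2D over 3850 bases in RefSeq. PPP2R2D was read 1211 times in hypoxia and 1186 times in normoxia (log2 ratio -0.06, -0.18 to 0.05). PINK1 overlaps its antisense RNA PINK1-AS. The sources used here do not state if strand was used in counting, so reads from the shared bases of either pair, BNIP3 and PPP2R2D or PINK1 and PINK1-AS, cannot be told apart.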

How the data were processed

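RNA-seq values came from 2 libraries, 1 of hypoxia and 1 of normoxia. Libraries were made with a stranded mRNA kit from TRIzol-extracted RNA, per the labels' protocols. Tools listed in the submitters' processing notes are HTSeq, HISAT2, Trimmomatic, Bowtie and Cufflinks, and the build is GRCh38; neither versions nor roles are given there. The values used were the authors' whole-number gene counts, deposited without scaling, and the FPKM that the authors deposited for the same genes. In 100% of the 14542 genes counted in both libraries the FPKM equalled the counts over the table total and a fixed gene length.

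TMM scaling used R 4.3.3 and edgeR 4.0.16. Exact intervals came from scipy 1.17.1 (Python 3.11.15, pandas 2.3.3, numpy 2.4.6), and figures from matplotlib 3.10.9. The filter kept 12725 genes that reached a CPM of 1 in either library. The ratio of ratios is the exact conditional odds ratio. The procedure was tested on simulated counts that held counting error only, with no variation between cultures. That test cannot show how far real cultures would differ. The 7 genes, the lists and the alternatives were chosen with earlier results of these data known. Besides the 7 genes, the text names genes from the 2 highest and 2 lowest well-counted members of each list, the 5 genes nearest to BNIP3 and to BNIP3L, and MAP1LC3C; another gene that the rule takes is not reported here. Others were named for their role after their values were seen. These include MAP1LC3B, PGAM5, PHB1, PPTC7, BNIP1, FUNDC2, NBR1, NIPSNAP1 and the HIF targets set beside BNIP3. KRT7, COL3A1, TIMM23, BECN1, FKBP4 and BCL2L1 were named for their values. Of the genes, 15526 matched RefSeq on GRCh38.p14 by Entrez identifier, and PHB1 is listed in the tables under its older symbol. Protein sequence was not used here.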

Additional observations from a re-analysis of the deposited data

How the results depend on the processing

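No paired analysis was possible because each condition had 1 library. DESeq2 1.42.0 size factors, total counts and upper quartile scaling kept each of the 7 genes within its counting interval and on its side of 0, and ratios of the deposited FPKM (pseudocount 1 or 0.1) also stayed within those intervals. Over these and the length alternative the log2 ratio of BNIP3 ran from 0.63 to 0.71 and that of BNIP3L from 0.25 to 0.27. Removing the length trend, chosen after seeing the data, moved FKBP8 to -0.10, and BCL2L13 to -0.02, within its interval, and the interval of PHB2 then held 0 (-0.09 to 0.05). No list median left the counting interval of its middle gene or, in lists of even size, the span of the intervals of both middle genes. Calls in the lists were less stable: of the 94 measured genes of mitophagy and autophagy, 15 were higher and 17 lower, against 11 and 12 with the length trend removed (5 lost in each direction), and in the core autophagy list 6 and 3 became 3 and 2. Total-count scaling ended the calls of GABARAP and FBXL4 as higher and made TIMM23 and BECN1 lower. The numbers of genes past 2-fold (60 higher, 56 lower) rest on genes with few reads: they were 107 and 104 with no filter, 7 and 1 after filtering at CPM 5, 19 and 10 where the interval had to lie beyond a ratio of 1.5, 6 and 1 with FPKM and a pseudocount of 1, and 30 and 20 with 0.1. None of the 7 genes is among them in the analysis as reported. The depth limits FUNDC1 most, with an interval of 0.902 to 1.24.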

Other observations

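The deposited tables carry their own gene annotation, which gives a list of mitophagy genes made without reference to these values. It assigns 38 genes to autophagy of mitochondrion or mitophagy, 36 of which passed the filter. Of these 6 were higher in hypoxia and 4 lower (4 and 3 with the length trend removed). By the same rule 15.0% of all 12725 genes at a CPM of 1 or more were higher and 14.0% lower. The 36 genes had a median log2 ratio of -0.01, and BNIP3 was the highest. BNIP3L, FKBP8 and BCL2L13 do not carry either of these terms. The annotated KEGG mitophagy pathway holds 65 genes that passed, with 14 higher, 16 lower and a median of -0.01. With the length trend removed 16 of them were higher and 14 lower. In that pathway the transcription factor FOXO3 followed BNIP3 at 0.33 (0.22 to 0.44), and the lowest were the transcription factors E2F1 at -0.48 (-0.61 to -0.34) and JUN at -0.45 (-0.53 to -0.37). With the length trend removed FOXO3 was at 0.25 (0.14 to 0.36), below other genes such as USP30 (0.29) and BNIP3L (0.27). E2F1 and JUN stayed the lowest. The mitochondrial transport GTPases of the pathway stood on opposite sides, with RHOT1 at 0.21 (0.06 to 0.37) and RHOT2 at -0.11 (-0.20 to -0.02). These genes were chosen after their values were seen.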
